A study of Mus musculus with 16 samples.

Results

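The genes described here are 34 markers of thalamic neurons, measured in hippocampal RNA of mice. They were chosen by name: a probe belongs to the set where the annotation of the array gives 1 of the 34 symbols, current or older. The array held 58 probes for 33 of them, of 25697 probes for 16593 genes in all, and no probe was annotated to Amotl1, an angiomotin-like protein of cell junctions. A gene was taken at its brightest probe, the one with the highest mean signal. A probe counted as detected on an array where its deposited detection p was under 0.05, and 44 of the 58 probes were detected on at least 4 arrays and 27 on all 16. The brightest probes of Synpo2, Nexn and Zic5 were detected on no array.

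The tissue was the hippocampus of male Swiss-Webster mice, 15 weeks old by the labels, from 2 lines, HA and LA, selected for high (HA) and for low (LA) analgesia after swim stress. The 4 groups, with 4 arrays each, were HA DMI, HA saline, LA DMI and LA saline, where DMI is desipramine, a tricyclic that blocks noradrenaline reuptake, given at 7.5 mg/kg/day in 21 intraperitoneal injections, and saline was injected in the same way. By the study's methods each array carried RNA pooled from several mice of one group, so the spread between arrays is that between pools. Each line is 1 selectively bred population, so line and any other difference between the populations cannot be told apart. In the field that describes the treatment, the sample records repeat the DMI text for the saline samples too, and groups were therefore taken from titles and treatment labels.

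The thalamus lies beneath the hippocampus and relays sensory and limbic signals to the cortex. Its relay neurons are glutamatergic, load their vesicles through the transporter encoded by Slc17a6, and switch between tonic and burst firing with the help of T-type calcium channels such as Cacna1g. Tcf7l2, Gbx2, Rora, Lef1, Lhx9, Shox2 and the Zic family are transcription factors whose expression marks thalamic neurons or their precursors. Most of these genes are not private to the thalamus: Calb2, for example, also marks mossy cells and interneurons of the mouse hippocampus.

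The markers of hippocampal principal cells checked the labelled tissue: 17 of the 19 measured were detected on all 4 arrays of every group, and 2 were detected on none. All arrays correlated within their group at 0.989 to 0.996 across probes, and 12900 to 13886 probes were detected per array. Mean signal per array ranged 240 to 421 on HA DMI, 269 to 380 on HA saline, 247 to 369 on LA DMI and 249 to 300 on LA saline arrays, before normalization. The files give no slide or scan batch, so none was tested. On the thalamic genes the 4 HA saline arrays lay close together and apart from most others, so results that rest on them are also given with the 4 averaged into 1 sample.

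Every value below is a log2 signal after quantile normalization, and every difference between treatments is the mean of the arrays labelled DMI minus that of the arrays labelled saline. This direction opposes the one that the study gives to its DMI effect. The labels were followed, and which way the drug itself acts is not read from them. Whether treatment labels, or the signs in the study, are exchanged could not be settled from the files. If the labels were exchanged in both lines, every treatment difference here and the difference between the lines' effects would change sign, and the comparisons of the lines under saline and under DMI would trade places. A probe was called where its adjusted p from limma, over all probes, was under 0.05 and its log2 difference was beyond 0.5 in either direction.

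On the HA DMI arrays the thalamic genes had lower signals than on the HA saline arrays. Of 58 member probes 6 were called lower and 0 higher, where 0.113% of all probes were called in either direction and 0.0856% lower. They belong to 5 genes: Tcf7l2 with 2 probes, Gbx2, Zic1, Irx2 and Zfhx3. By adjusted p alone 8 probes passed, all lower (0.331% of all probes, and 0.257% lower), which adds Zic4 and a probe of Ramp3. At an unadjusted p under 0.05, 28 of 33 genes at their brightest probe were lower and none higher. Counted by probe, 38 of 58 were lower, where 4.72% of all probes were. The 4 HA DMI arrays all lay below the 4 HA saline arrays for 28 of 33 genes, and for 38 of 58 member probes (3.54% of all probes). The median log2 difference was -0.58 over the 33 genes, 31 with a negative and 2 with a positive value, against 0.00074 over all genes. In bulk tissue, fewer cells of a type and less of their RNA per cell cannot be told apart.

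The share of all probes called was counted only for the main fit to all arrays, so the counts below describe the member probes alone. The number of calls rested on single arrays, and the direction did not. It was 0 without any 1 of HA DMI replicates 1, 2 and 3 and HA saline replicates 1, 3 and 4, 1 without HA saline replicate 2, 3 without HA DMI replicate 4, 12 without LA DMI replicate 1, 14 without LA saline replicate 1 and 16 without LA saline replicate 2, while the median stayed between -0.63 and -0.49. It was 1 under median scaling. With the 4 HA saline arrays averaged into 1 sample it was 0, where the median stayed at -0.58 and the standard errors are larger by construction.

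Many of these genes had been selected from these very arrays, in a table of HA genes, so a direction they share gives no independent support. Of the 33 genes measured, 17 are named there, and their median log2 difference was -0.74. The 16 others, from Zic2 to Ccdc136, had a median of -0.25, with 14 of 16 below 0 and values from -0.61 to 0.038. These too were chosen with earlier results of these data known, so they give no independent support either. Zic5, Synpo2 and Nexn, which are among them, were detected on no array at their brightest probe.

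**Figure D1:**
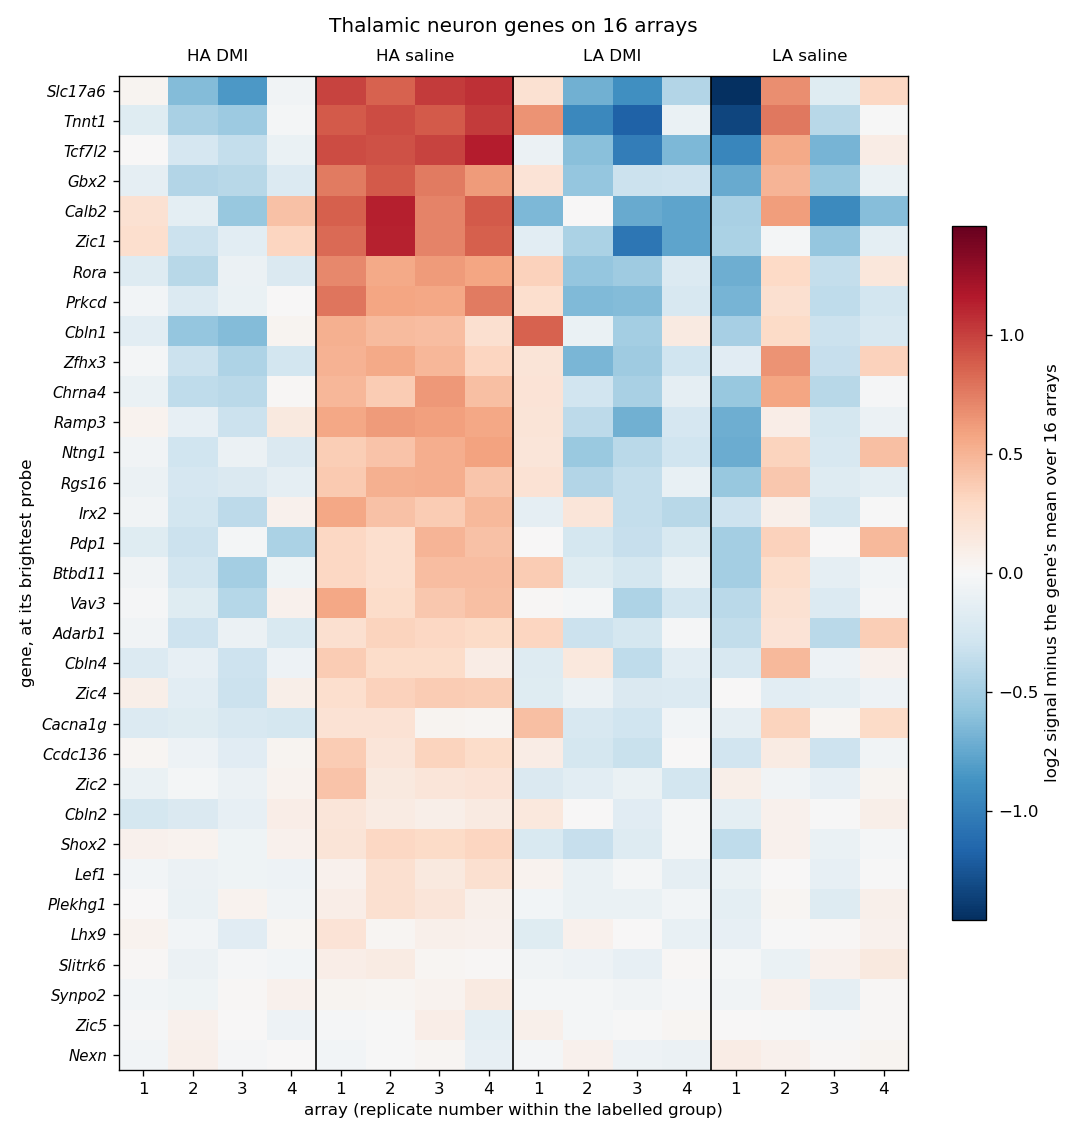
Normalized log2 signal of the 33 measured genes at their brightest probe (rows) on the 16 arrays (columns, by labelled group), as the deviation from each gene's mean over the 16 arrays; red is above and blue below that mean. The 4 HA saline columns are red for most genes, and HA saline had the highest group mean for 30 of the 33.

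The transcription factors held all of the calls in HA mice. Tcf7l2, the DNA-binding partner of beta-catenin in Wnt signalling and a factor that marks postmitotic thalamic neurons, had signals of 8.11, 7.85, 7.75 and 8.00 on HA DMI arrays, against 9.04, 9.03, 9.08 and 9.24 on HA saline arrays. Its highest HA DMI array was below its lowest HA saline array, and the signal fell by 1.17 (SE 0.24, limma adjusted p = 0.0426), which is 2.25-fold. LA DMI arrays had 8.01, 7.49, 7.09 and 7.44, and LA saline arrays had 7.15, 8.65, 7.42 and 8.20. These overlapped, with a difference of -0.34 (adjusted p = 0.76). A dimmer probe of Tcf7l2 had 6.75, 6.81, 6.79 and 6.91 on HA DMI arrays and 7.35, 7.24, 7.25 and 7.46 on HA saline arrays, and fell by 0.51 (adjusted p = 0.0182). The remaining probe of the gene was detected on 1 array only.

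Gbx2, a homeobox factor that the embryonic thalamus needs for its neurons to form and project, read 7.17, 6.88, 6.90 and 7.11 on HA DMI and 8.06, 8.20, 8.05 and 7.92 on HA saline arrays. The groups did not overlap, and the signal fell by 1.05 (SE 0.20, limma adjusted p = 0.0299), or 2.06-fold. On LA DMI arrays Gbx2 read 6.74 to 7.50, against 6.57, 7.79, 6.75 and 7.20 on LA saline arrays. LA saline held both the lowest and the highest LA array, and the LA difference was -0.023 (adjusted p = 0.987).

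The Zic genes encode zinc-finger factors of early brain patterning, and Zic1 and Zic4 lie head to head on chromosome 9. Zic1 read 8.57, 8.01, 8.17 and 8.63 on HA DMI and 9.14, 9.44, 9.04 and 9.19 on HA saline arrays, fell by 0.86 (SE 0.17, limma adjusted p = 0.0384) and did not overlap between them. In the LA line it read 8.17, 7.86, 7.27 and 7.55 under DMI and 7.85, 8.30, 7.76 and 8.18 under saline, which overlapped (difference -0.31, adjusted p = 0.65). Zic4 read 6.90, 6.66, 6.50 and 6.90 on HA DMI and 7.06, 7.15, 7.18 and 7.17 on HA saline arrays. It fell by 0.40 (adjusted p = 0.027), inside the limit of 0.5, and it was detected on 2 of the 4 HA DMI and all 4 HA saline arrays. Zic2 read 6.80, 6.87, 6.81 and 6.95 on HA DMI and 7.31, 7.03, 7.08 and 7.10 on HA saline arrays, a difference of -0.27 that missed the threshold (adjusted p = 0.0808). Zic5, its neighbour on chromosome 14, was detected nowhere.

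Irx2, an Iroquois homeobox factor, read 6.77, 6.55, 6.44 and 6.88 on HA DMI and 7.38, 7.24, 7.19 and 7.28 on HA saline arrays. It was detected on 2 and 4 of those arrays and fell by 0.62 (SE 0.12, limma adjusted p = 0.0314). Zfhx3, a large zinc-finger homeobox factor, was called at its dimmer probe, which read 7.18, 7.16, 7.13 and 7.21 on HA DMI and 7.72, 7.82, 7.79 and 7.82 on HA saline arrays and fell by 0.62 (adjusted p = 0.0314). Its brightest probe read 7.93, 7.64, 7.51 and 7.69 on HA DMI and 8.47, 8.51, 8.44 and 8.27 on HA saline arrays, with a difference of -0.73 (adjusted p = 0.11). In LA mice that probe had the largest negative difference of the 33 genes, -0.45 (adjusted p = 0.491).

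Rora, a nuclear receptor of thalamic and cerebellar neurons, read 8.36, 8.14, 8.46 and 8.34 on HA DMI and 9.24, 9.10, 9.17 and 9.12 on HA saline arrays, with a difference of -0.83 (limma adjusted p = 0.073). All 4 HA DMI arrays were below all 4 HA saline arrays, and the LA groups overlapped. Lef1, the relative of Tcf7l2 that also binds beta-catenin, was detected on the 4 HA saline arrays and no other. It read 6.57, 6.53, 6.56 and 6.54 on HA DMI and 6.68, 6.85, 6.75 and 6.85 on HA saline arrays. With undetected signals set to the floor of detected probes, its mean was at least 1.09-fold higher on HA saline arrays. The difference of its signals before that step missed the threshold (limma adjusted p = 0.0551). Shox2, a homeobox factor, read 6.85, 6.84, 6.73 and 6.86 on HA DMI and 6.98, 7.09, 7.07 and 7.10 on HA saline arrays, with a difference of -0.24 (adjusted p = 0.261). Lhx9, a LIM homeobox factor, had -0.12 (adjusted p = 0.622), and its HA groups overlapped.

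Promoter windows are printed for the 3 genes that passed the adjusted p in HA mice and hold the core that Tcf7l2 and Lef1 recognise. The letters searched on both strands were CTTTG followed by AA, AT, TA or TT, 4 forms that share their first letters, in windows of 250 bases before to 50 bases after each RefSeq start (GRCm38.p6). The core was found in 7 of 39 windows of 27 members, 17.9%, against 16.9% of all 32851 windows. Capitals mark it, and each sequence runs 5′ to 3′ along the strand of the gene.
Tcf7l2, chr19:55895071-55895370, plus strand, an internal start of the gene: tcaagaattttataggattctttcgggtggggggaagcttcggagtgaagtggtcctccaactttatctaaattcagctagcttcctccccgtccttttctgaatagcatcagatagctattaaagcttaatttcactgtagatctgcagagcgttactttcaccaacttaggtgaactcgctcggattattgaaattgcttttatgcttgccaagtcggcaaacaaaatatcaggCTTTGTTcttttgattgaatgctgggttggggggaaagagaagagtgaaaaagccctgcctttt
Zic4, chr9:91368722-91369021, plus strand: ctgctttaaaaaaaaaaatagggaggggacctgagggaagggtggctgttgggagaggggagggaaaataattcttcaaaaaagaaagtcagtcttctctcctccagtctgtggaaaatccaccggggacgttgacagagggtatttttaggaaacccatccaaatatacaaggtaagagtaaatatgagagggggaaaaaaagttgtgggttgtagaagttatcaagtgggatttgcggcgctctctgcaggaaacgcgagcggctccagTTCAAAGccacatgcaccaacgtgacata
Zfhx3, chr8:108714394-108714693, plus strand: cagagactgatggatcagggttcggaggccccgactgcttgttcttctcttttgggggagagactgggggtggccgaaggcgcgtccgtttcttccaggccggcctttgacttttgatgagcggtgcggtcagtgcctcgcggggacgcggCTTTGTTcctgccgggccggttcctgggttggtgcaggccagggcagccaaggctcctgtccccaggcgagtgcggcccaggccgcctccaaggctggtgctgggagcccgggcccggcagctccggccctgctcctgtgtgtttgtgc

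In the Tcf7l2 window the core starts 14 bases before the start, in that of Zfhx3 99 bases before, and in that of Zic4 21 bases after it, where the gene's strand carries the reverse complement. The windows of Gbx2, Zic1, Irx2 and Ramp3, which also passed the adjusted p, did not hold these letters. Nor did the window at the upstream start of Tcf7l2. Prkcd, Vav3, Lef1 and Lhx9 held these letters in at least 1 window. By gene, 7 of the 27 members held the core in at least 1 window, 25.9%, against 18.9% of all 27025 genes. A match is a description of the sequence and not a site.

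Slc17a6, Chrna4 and Cacna1g act in synaptic transmission or excitability, and each missed the adjusted p in HA mice. Slc17a6, the vesicular glutamate transporter VGLUT2, had the most negative HA difference of the 33 genes. It read 9.95, 9.29, 9.07 and 9.87 on HA DMI and 10.91, 10.77, 10.93 and 10.98 on HA saline arrays, with a difference of -1.35 (SE 0.34, limma adjusted p = 0.104). Every HA DMI array was below every HA saline array. LA DMI arrays read 10.14, 9.21, 9.03 and 9.49, against 8.46, 10.60, 9.74 and 10.22 on LA saline arrays with replicates 1 and 2 at the ends of their range. Chrna4, a nicotinic acetylcholine receptor subunit, read 8.03, 7.76, 7.74 and 8.14 on HA DMI and 8.61, 8.50, 8.75 and 8.56 on HA saline arrays, with a difference of -0.69 (adjusted p = 0.132). Its other detected probes had -0.48 and -0.090. Cacna1g, a T-type calcium channel of burst firing, read 7.40 to 7.48 on HA DMI and 7.68 to 7.87 on HA saline arrays, with a difference of -0.34 (adjusted p = 0.362) at its brightest probe and -0.051 at the other.

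The cerebellins are secreted proteins that bridge presynaptic neurexins to postsynaptic receptors. Cbln1 read 7.85, 7.44, 7.38 and 8.04 on HA DMI and 8.52, 8.47, 8.46 and 8.24 on HA saline arrays, a difference of -0.74 (limma adjusted p = 0.2) without overlap. Its LA difference was positive, 0.29 (adjusted p = 0.786), and its highest array of all 16 was LA DMI replicate 1 at 8.87. Cbln4 read 7.73, 7.80, 7.62 and 7.85 on HA DMI and 8.29, 8.20, 8.19 and 8.03 on HA saline arrays, with a difference of -0.43 (adjusted p = 0.178). Cbln2 read 6.70, 6.75, 6.84 and 7.06 on HA DMI and 7.14, 7.08, 7.05 and 7.10 on HA saline arrays, where 1 HA DMI array overlapped the saline range (-0.26, adjusted p = 0.196). Ntng1 encodes netrin-G1, a membrane-anchored ligand on thalamocortical axons. Its brightest probe read 9.06, 8.83, 9.03 and 8.91 on HA DMI and 9.47, 9.53, 9.64 and 9.70 on HA saline arrays, a difference of -0.63 (adjusted p = 0.215). The 2 dimmer probes had -0.33 and -0.23. Slitrk6, a transmembrane protein that acts in neurite growth, was detected on 2 of 16 arrays and no fold is given.

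Calb2, Prkcd, Rgs16, Ramp3 and Vav3 act in calcium or intracellular signalling, and at its brightest probe none of them passed the adjusted p in HA mice. Calb2, the calcium-binding protein calretinin, read 10.16, 9.81, 9.39 and 10.38 on HA DMI and 10.81, 11.07, 10.66 and 10.84 on HA saline arrays, with a difference of -0.91 (SE 0.26, limma adjusted p = 0.183) and no overlap. LA DMI arrays read 9.29, 9.95, 9.21 and 9.17 and LA saline arrays 9.47, 10.55, 9.01 and 9.32, so that 1 array of each group stood above its other 3. The second Calb2 probe read 7.81, 7.63, 7.60 and 7.91 on HA DMI and 8.46, 8.29, 8.46 and 8.38 on HA saline arrays, a difference of -0.66 (adjusted p = 0.0548). Prkcd, protein kinase C delta, read 8.74, 8.59, 8.69 and 8.79 on HA DMI and 9.57, 9.36, 9.35 and 9.54 on HA saline arrays, with a difference of -0.75 (adjusted p = 0.0773). Rgs16, which shortens G protein signals, read 7.54, 7.39, 7.42 and 7.50 on HA DMI and 8.01, 8.15, 8.16 and 8.03 on HA saline arrays (-0.62, adjusted p = 0.0886). Both genes kept the HA groups apart.

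Ramp3, a partner that traffics calcitonin-family receptors to the cell surface, had 3 detected probes. The dimmest of them read 7.04, 6.96, 6.84 and 7.05 on HA DMI and 7.54, 7.46, 7.33 and 7.33 on HA saline arrays, fell by 0.44 (limma adjusted p = 0.0299) and stayed inside the limit of 0.5. The brightest read 7.71, 7.53, 7.34 and 7.80 on HA DMI and 8.22, 8.28, 8.26 and 8.23 on HA saline arrays, a difference of -0.65 (adjusted p = 0.105), and the other had -0.49 (adjusted p = 0.0936). All 3 separated the HA groups. Vav3, a guanine nucleotide exchange factor, read 8.03, 7.87, 7.63 and 8.11 on HA DMI and 8.62, 8.31, 8.44 and 8.49 on HA saline arrays, with a difference of -0.56 (adjusted p = 0.0742). A dimmer Vav3 probe had -0.062, and its groups overlapped. Plekhg1, another exchange factor, was detected on no HA DMI and 3 HA saline arrays. Its HA saline mean was 1.06-fold above the floor of detected probes on the HA DMI arrays. The difference of its signals before that step did not pass (limma adjusted p = 0.342).

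**Figure D2:**
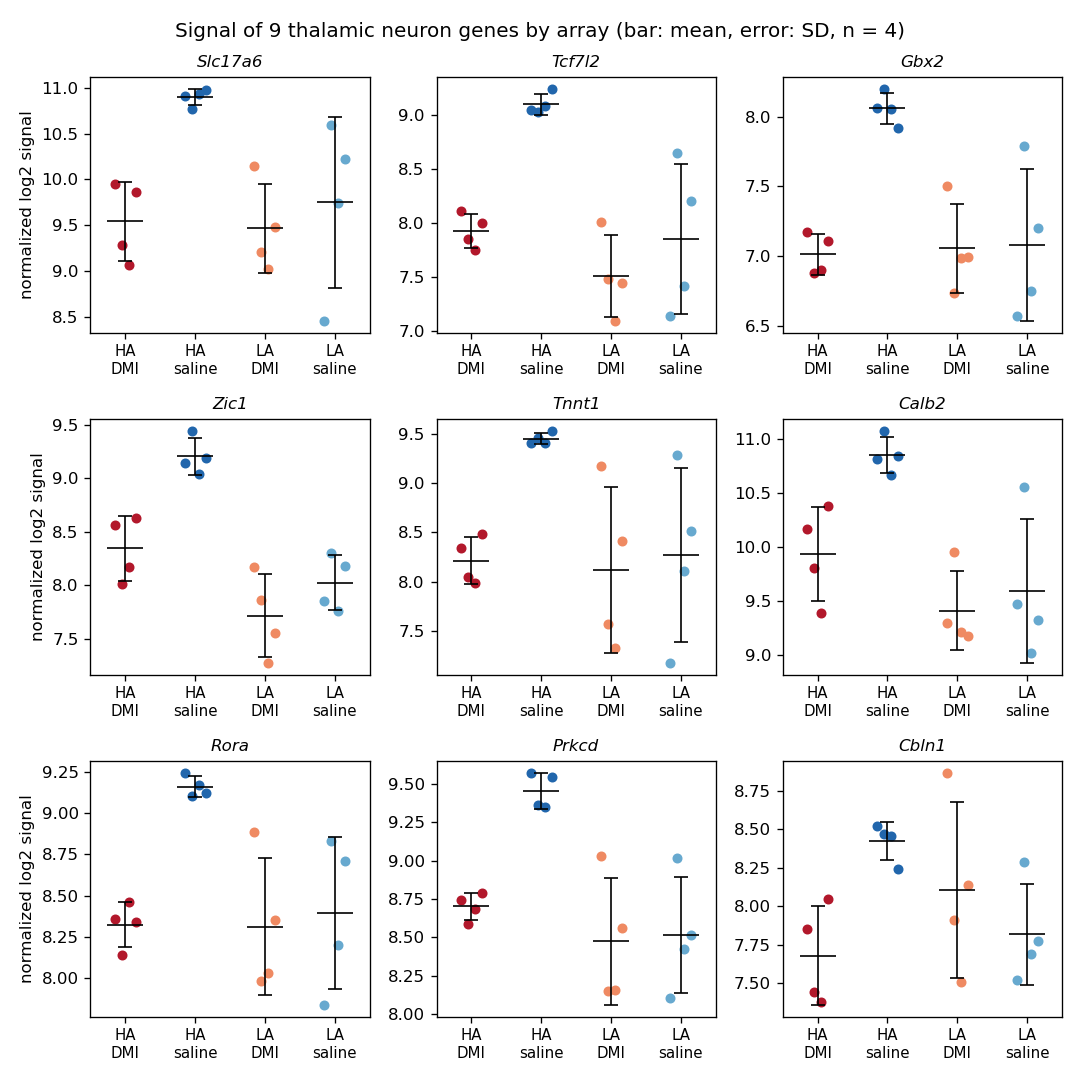
Normalized log2 signal (vertical axes, which differ between panels and do not start at 0) of 9 genes in the 4 labelled groups; each point is 1 array, the bar is the mean and the error bar the SD (n = 4). The 4 HA saline points lie close together and above the HA DMI points in all 9 panels, while the LA points spread more widely in most panels.

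Tnnt1 and the remaining members have metabolic, structural or RNA-processing roles. Tnnt1 encodes the troponin T of slow skeletal muscle and is also transcribed in the thalamus. It read 8.34, 8.04, 7.98 and 8.48 on HA DMI and 9.40, 9.46, 9.41 and 9.53 on HA saline arrays, with a difference of -1.24 (SE 0.36, limma adjusted p = 0.196). LA DMI arrays read 9.17, 7.57, 7.33 and 8.41, against 7.18, 9.28, 8.11 and 8.51 on LA saline arrays, which overlapped over almost their whole range. Pdp1, a phosphatase that activates pyruvate dehydrogenase, read 8.48, 8.35, 8.63 and 8.20 on HA DMI and 8.96, 8.90, 9.16 and 9.08 on HA saline arrays (-0.61, adjusted p = 0.103). Btbd11, a BTB-domain protein, read 8.74, 8.52, 8.29 and 8.73 on HA DMI and 9.09, 9.03, 9.24 and 9.24 on HA saline arrays, a difference of -0.58 (adjusted p = 0.104). Pdp1 and Btbd11 did not overlap between the HA groups.

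Adarb1, an enzyme that edits adenosine to inosine in RNA, read 10.33, 10.08, 10.30 and 10.16 on HA DMI and 10.62, 10.71, 10.68 and 10.66 on HA saline arrays, a difference of -0.45 (limma adjusted p = 0.29). Its dimmer probe had -0.046 and overlapped, so the 2 probes of Adarb1 did not run together. Ccdc136, a coiled-coil protein, read 7.48, 7.39, 7.30 and 7.50 on HA DMI and 7.83, 7.64, 7.78 and 7.73 on HA saline arrays, with a difference of -0.33 (adjusted p = 0.209). The actin-binding genes Synpo2 and Nexn were not detected on any array and have no level to compare.

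In LA mice the same genes showed no call. Of the 58 member probes 0 were called, where 0.0311% of all probes were, and 0 passed the adjusted p alone in limma (0.0662% of all probes). At an unadjusted p under 0.05, 4 probes passed: Ntng1, Zfhx3 and Zic2 with a negative difference and Adarb1 with a positive one (8.68% of all probes in either direction). The smallest adjusted p was 0.0677, at the dimmest probe of Ntng1. That probe read 6.69, 6.60, 6.65 and 6.73 on LA DMI and 6.85, 7.09, 6.93 and 6.96 on LA saline arrays, without overlap, a difference of -0.29. The median over 33 genes was -0.078, with 28 genes below and 5 above 0. It turned to 0.017 when LA saline replicate 2 was left out, and was -0.18 without LA saline replicate 1.

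The spread between LA arrays was the main difference in precision. The median SD of the member genes was 0.13 on HA DMI, 0.090 on HA saline, 0.28 on LA DMI and 0.31 on LA saline arrays. Over all genes the median SD was 0.076 on HA DMI, 0.072 on HA saline, 0.079 on LA DMI and 0.086 on LA saline arrays. Over probes detected on all 16 arrays it was 0.104 on HA DMI, 0.0934 on HA saline, 0.101 on LA DMI and 0.123 on LA saline arrays. The thalamic genes thus had a median SD above both on the LA and HA DMI arrays, and on HA saline arrays one that lay between the 2. An HA difference was tested with the spread of all 16 arrays. With the HA arrays alone 21 member probes were called, but the share of all probes called in that fit was not counted.

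A mean over the 33 genes, each as its deviation from its own mean over 16 arrays, shows which arrays carried the spread. It was -0.042, -0.21, -0.24 and -0.030 on HA DMI arrays, and 0.42, 0.41, 0.41 and 0.40 on HA saline arrays. On LA DMI arrays it was 0.086, -0.26, -0.39 and -0.19, and on LA saline arrays -0.41, 0.24, -0.24 and 0.036. The HA saline arrays were the 4 highest, with an SD of 0.0095, and LA saline replicate 2 came next. LA saline replicate 1 and LA DMI replicate 3 were the lowest. In signal units before the log, the sum over the 33 genes was 8139 to 9819 on HA DMI, 14643 to 14919 on HA saline, 7161 to 10998 on LA DMI and 6939 to 12799 on LA saline arrays. For 22 of the 58 probes, of 17 genes, all 4 HA saline arrays lay above all 12 others (0.564% of all probes). Since many members were selected from the HA arrays, that count gives no independent support.

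**Figure D3:**
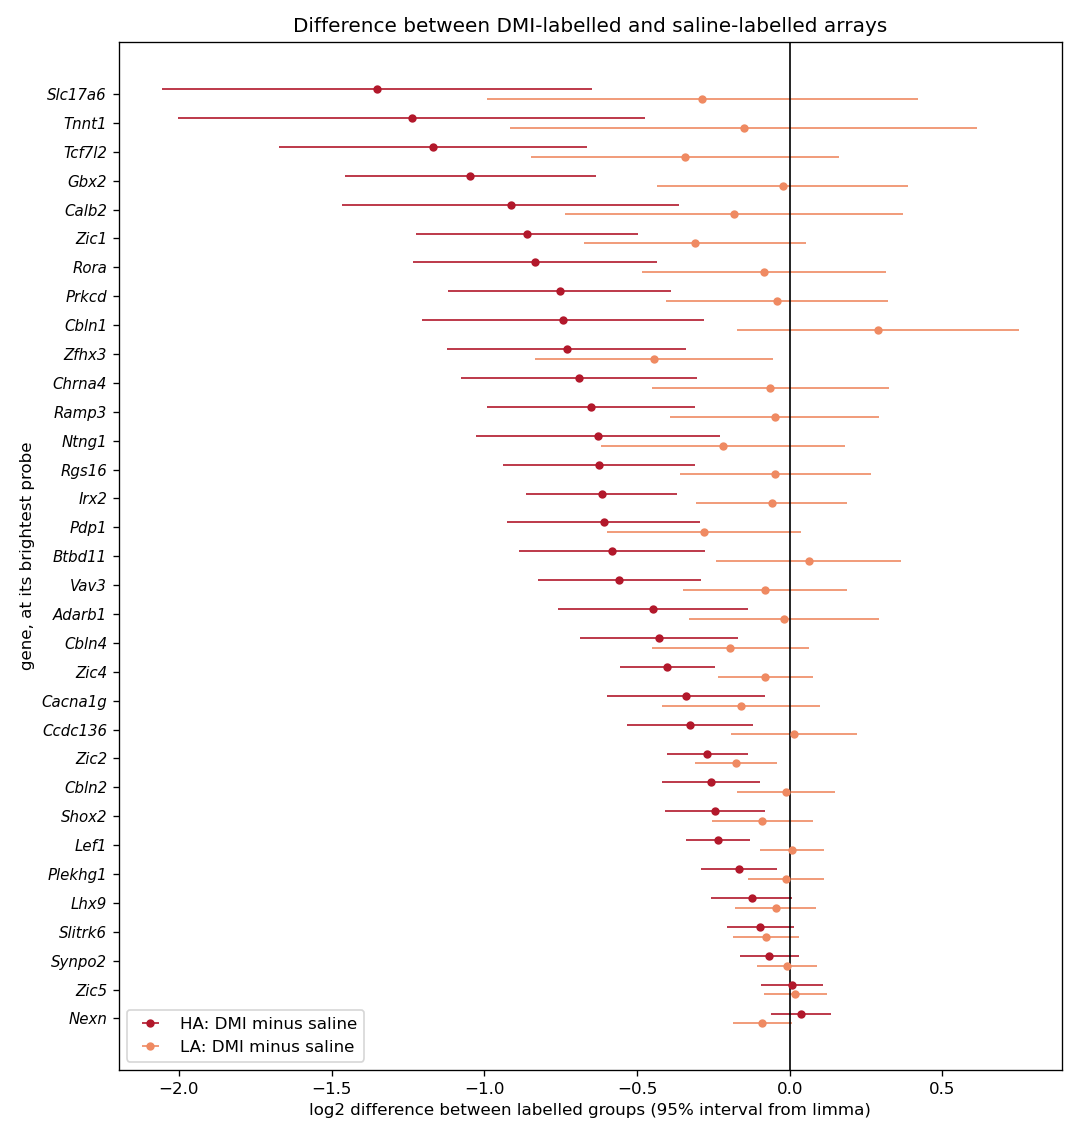
Log2 difference between DMI-labelled and saline-labelled arrays (horizontal axis) for the 33 genes at their brightest probe, in HA mice and LA mice, with limma's 95% interval. The HA values run to -1.35 at Slc17a6 and the LA values lie between -0.45 and 0.29, and the intervals of both lines overlap for most genes.

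Whether the treatments differed more in HA than in LA mice was tested as the HA difference minus the LA difference. No member probe was called or passed the adjusted p (0.00389% of all probes did). At an unadjusted p under 0.05, 26 of the 58 probes had a more negative difference in HA mice and none a more positive one (3.89% of all probes, and 6.99% in either direction). Gbx2 had -1.02 (SE 0.28, limma adjusted p = 0.352) and Cbln1 had -1.03 (adjusted p = 0.439). The smallest adjusted p was 0.126, at the dimmest probe of Ramp3 with -0.58. The median was -0.41 over the 33 genes and -0.0012 over all genes. This comparison holds the same HA saline arrays as the HA one. Many members were selected by their HA difference on these very arrays, and the others with earlier results known. The counts here therefore give no independent support. Without LA saline replicate 2 it gave 2 called member probes.

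Between the lines under saline, thalamic genes were higher on the HA arrays, in a comparison where genes of choroid plexus and striatum also differed. Of 58 member probes 16 were called higher and 0 lower on HA saline than on LA saline arrays, where 1.19% of all probes were called in either direction and 0.537% higher. By adjusted p alone 24 member probes passed, all higher (6.36% of all probes, 3.21% higher). The 16 called probes belong to 12 genes: Calb2, Chrna4, Gbx2, Irx2, Prkcd, Ramp3, Rgs16, Rora, Tcf7l2, Vav3, Zfhx3 and Zic1. The median difference was 0.42 over the 33 genes, against -0.0017 over all genes. These HA saline arrays are also those of the HA treatment comparison, so the 2 comparisons are not independent. Many members were selected from that treatment comparison, so their higher level on HA saline arrays gives no independent support. The count was 10 without LA saline replicate 1, and 0 with the HA saline arrays averaged into 1 sample, with the median unchanged at 0.42.

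Calb2 averaged 10.85 ± 0.17 on HA saline and 9.59 ± 0.67 on LA saline arrays (SD, n = 4 each), and was higher in HA by 1.26 (limma adjusted p = 0.00674). Tcf7l2 averaged 9.10 ± 0.098 on HA saline and 7.85 ± 0.69 on LA saline arrays, higher by 1.25 (adjusted p = 0.00386). Zic1 averaged 9.20 ± 0.17 on HA saline and 8.02 ± 0.26 on LA saline arrays, higher by 1.18 (adjusted p = 0.000397). For these 3 genes every HA saline array was above every LA saline array. Gbx2 was higher in HA saline by 0.98 (adjusted p = 0.00495), Prkcd by 0.94 (adjusted p = 0.00286) and Rora by 0.76 (adjusted p = 0.0203). Slc17a6 had 1.14 (adjusted p = 0.0501) and Tnnt1 1.18 (adjusted p = 0.0635), beyond the limit of 0.5 but short of the adjusted p. For both, every HA saline array was above every LA saline array. Cacna1g had a difference of -0.0031, with 7.78 ± 0.10 on HA saline and 7.78 ± 0.21 on LA saline arrays. Lef1 was at least 1.08-fold higher in HA saline (adjusted p = 0.0112), and a Shox2 probe at least 1.12-fold (adjusted p = 0.00316).

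Between the lines under DMI, 1 member probe was called, that of Zic1, higher in HA (0.385% of all probes, and 0.852% in either direction). At an unadjusted p under 0.05, 6 of the 58 member probes passed, against 16.3% of all probes. Zic1 averaged 8.34 ± 0.30 on HA DMI and 7.71 ± 0.39 on LA DMI arrays, higher in HA by 0.63 (limma adjusted p = 0.0416), and the groups overlapped. A dimmer probe of Adarb1 read 7.02, 7.03, 6.95 and 7.06 on HA DMI and 7.38, 7.14, 7.26 and 7.30 on LA DMI arrays, and was lower in HA by 0.25 (adjusted p = 0.0107), inside the limit of 0.5. The median difference was 0.029, with 22 genes above and 11 below 0. The call of Zic1 was lost when HA DMI replicate 1 or 4 was left out, and likewise for HA saline replicates 1, 3 and 4 and LA DMI replicates 3 and 4.

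By group mean, the order of the 33 genes put HA saline first for 30. LA saline was first for 2 and LA DMI for 1, and HA DMI for none. The second place went to LA saline for 18 genes, HA DMI for 11, LA DMI for 3 and HA saline for 1. LA DMI came last for 21 genes and HA DMI for 10. The place of HA saline gives no independent support, since many members were selected from the HA arrays. Among the other 3 groups, 3 of 33 genes had an unadjusted p under 0.05 between HA DMI and LA DMI, where 17.9% of all genes had one. Between LA DMI and LA saline 2 of 33 did, against 9.31% of all genes. Between HA DMI and LA saline, a pair compared for this order only, 2 of 33 did, Cacna1g and Pdp1, against 18.3% of all probes. For the remaining genes no pair of these 3 groups passed that threshold.

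Genes of related function were counted for comparison. Of 9 measured genes that shape thalamic firing (ion channels and their regulators), 0 passed the adjusted p in HA mice. Their median was -0.032, 8 of the 9 had a negative difference, and 2 had an unadjusted p under 0.05, both negative. Plcb4, a phospholipase C, had -0.17, adjusted p = 0.506 and Kcnab3, a potassium channel subunit, -0.26, adjusted p = 0.582. Of 7 measured partners of the cerebellins and netrin-G1, such as the neurexin Nrxn3 (0.24, adjusted p = 0.493) and the netrin-G1 receptor Lrrc4c (0.094, adjusted p = 0.855), 0 passed, 2 had a negative difference, and the median was 0.0030. Among 21 genes of the Wnt pathway, 1 passed the adjusted p, Ctnnb1, the beta-catenin that Tcf7l2 and Lef1 bind. It averaged 11.14 ± 0.12 on HA DMI and 11.51 ± 0.053 on HA saline arrays and was lower by 0.37, inside the limit of 0.5 (limma adjusted p = 0.0393). Axin2, a target and brake of the pathway, had -0.33, adjusted p = 0.178. Of the 21 genes 12 had a negative difference, and the median was -0.016.

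Markers of other tissues and cell types were counted in the same comparisons. The habenula sits beside the dorsal thalamus, and of 12 of its markers measured 10 had a negative difference, with a median of -0.11 and 0 past the adjusted p. Gpr151, a receptor of habenular neurons, had -0.70, adjusted p = 0.178, and Chrna3, a nicotinic subunit, -0.32, adjusted p = 0.0965. The summed signal of the habenula markers was 1124 to 1448 on HA DMI, 1452 to 1554 on HA saline, 1170 to 1511 on LA DMI and 1168 to 1274 on LA saline arrays. On HA DMI arrays 4 of the 12 were undetected throughout, and on HA saline arrays 2.

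Of 18 oligodendrocyte and myelin genes 16 had a negative HA difference, 3 passed the adjusted p, and the median was -0.17. Their summed signal was 33815 to 37884 on HA DMI, 43279 to 46699 on HA saline, 33449 to 37354 on LA DMI and 33012 to 45130 on LA saline arrays. Bcas1, a protein of myelin-forming cells, fell by 0.62 (limma adjusted p = 0.00592). Of 20 leptomeningeal and fibroblast genes 17 had a negative difference and 2 passed, with a median of -0.14 and a summed signal of 7000 to 7621 on HA DMI, 9903 to 10216 on HA saline, 5012 to 6560 on LA DMI and 6318 to 9400 on LA saline arrays. Of 15 astrocyte genes 13 had a negative difference and 1 passed, with a median of -0.17. It was Slc6a11, a GABA transporter that thalamic astrocytes also use, with -0.62, adjusted p = 0.0226.

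Hippocampal principal cell markers ran the other way. Of 19 measured, 17 had a positive HA difference and 0 passed the adjusted p, with a median of 0.20. Spink8, a marker of hippocampal pyramidal cells, had 0.64, adjusted p = 0.103, and Wfs1, a marker of CA1, 0.35, adjusted p = 0.11. Their summed signal was 14527 to 16107 on HA DMI, 12543 to 13994 on HA saline, 13442 to 15926 on LA DMI and 12361 to 15776 on LA saline arrays. In the HA comparison, 14 of 16 choroid plexus genes had a negative difference and 0 passed, with a median of -0.12, and 4 of 14 genes of striatal projection neurons had a negative one and 0 passed, with a median of 0.025. Of 13 GABAergic interneuron genes 4 had a negative HA difference, and the median was 0.093. From that list 1 gene passed, Crhbp, higher by 0.78 (limma adjusted p = 0.00841). Of 15 endothelial and mural cell genes 10 had a negative HA difference and 0 passed, with a median of -0.095.

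The choroid plexus epithelium secretes cerebrospinal fluid in the ventricle beside the hippocampus, and 10 of its 16 genes passed the adjusted p between the lines under saline, all higher in HA, with a median of 0.44. Between the lines under DMI 13 of the 16 passed, again higher in HA, with a median of 0.66. In LA mice 4 passed between DMI and saline, all lower, with a median of -0.47. Their summed signal was 26426 to 28997 on HA DMI, 29212 to 31380 on HA saline, 6298 to 12971 on LA DMI and 18276 to 30232 on LA saline arrays.

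All 14 striatal genes had a negative difference between HA saline and LA saline arrays, where 7 passed the adjusted p and the median was -0.48. In LA mice all 14 also had a negative difference between DMI and saline arrays, with a median of -0.56 and 0 past the adjusted p. Their summed signal was 4892 to 6305 on HA DMI, 5256 to 5770 on HA saline, 5094 to 6337 on LA DMI and 6067 to 13529 on LA saline arrays. Under saline the habenula list had 3 of 12 genes past the adjusted p and the oligodendrocyte list 4 of 18, all higher in HA, and the astrocyte list 3 of 15 higher and 2 lower. So in the comparison where the thalamic genes had a median of 0.42, the choroid plexus list had a shift of the same size and the striatal list one of the opposite sign. The part of these other tissues in the results for thalamic genes was not tested.

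**Figure D4:**
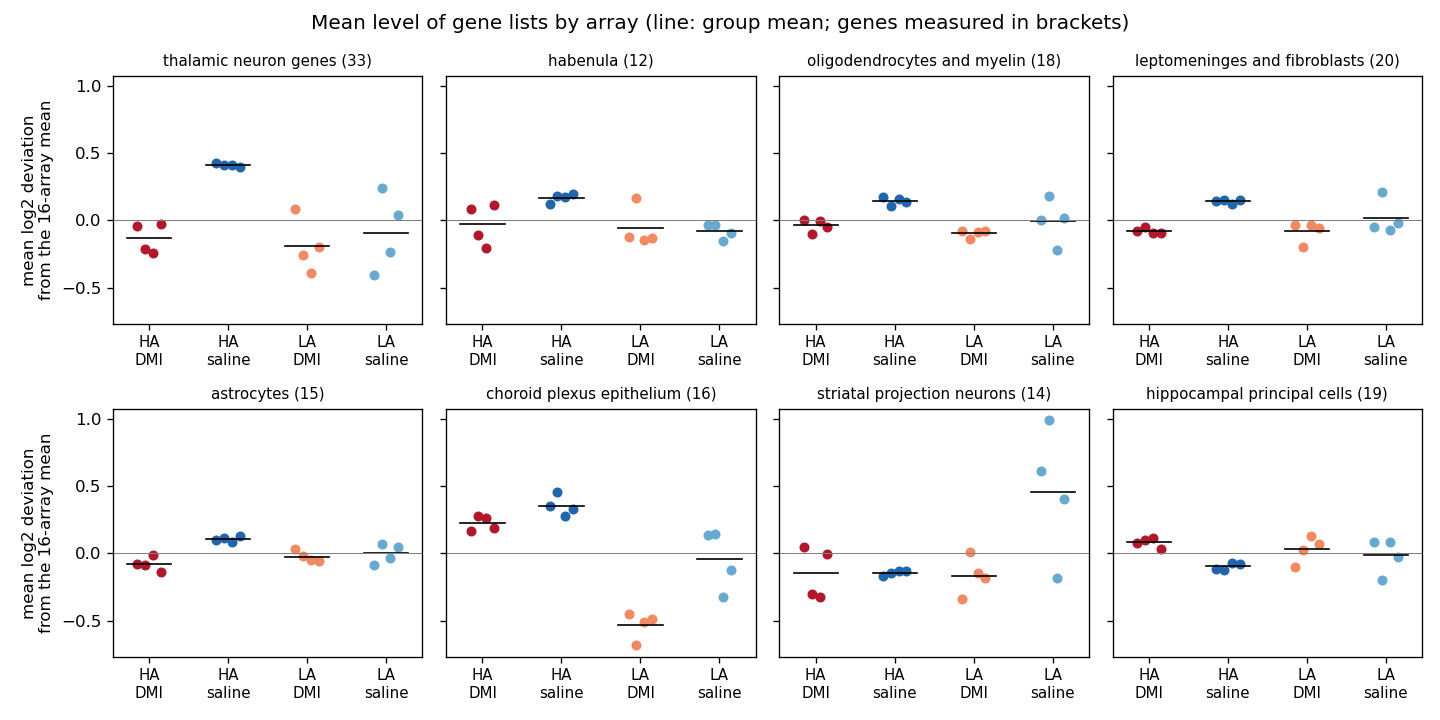
Mean deviation in log2 signal from the 16-array mean (vertical axis) of the thalamic neuron genes and 7 other gene lists in the 4 labelled groups; each point is 1 array, the line is the group mean and the number of genes measured is in brackets. The thalamic genes, with HA saline at 0.40 to 0.42, show the widest gap between the HA groups. Of these genes 17 are named in the study's table of HA genes from the same arrays, so the width of the gap is no independent result. The hippocampal markers are lower on HA saline than on HA DMI arrays.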

How the data were processed

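RNA of the hippocampus was hybridized to 16 one-colour Illumina MouseRef-8 v2 BeadChips, 4 per group, each from RNA pooled within a group by the study's methods. The authors deposited a signal intensity with a detection p-value per probe and array, not normalized, and a table of log2 values that they had quantile normalized. Signals were taken to log2 and quantile normalized again in limma 3.58.1 (R 4.3.3), which lay within 0.0456 of the authors' deposited log2 values (median 6.70 against 6.69). With no background subtraction, differences of dim probes are compressed. Probe names came from the platform annotation, updated by gene identifier to RefSeq GRCm38.p6; 23978 probes had 1 symbol and 1719 none.

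The study's methods name linear models in limma without their design. Here 1 linear model with 4 group means was fitted to all 25697 probes and 16 arrays, with limma's moderated test and Benjamini-Hochberg adjustment over all probes. The comparisons were DMI against saline in each line, the difference of the 2, and the lines under saline and under DMI. HA DMI against LA saline was added later, for the order of the groups. A call needed an adjusted p under 0.05 and a log2 difference beyond 0.5. Where a probe was undetected on every array of a group, a fold is a lower limit for the ratio of means, with the lowest detected signal of each array as the floor. This limit takes no account of the spread between arrays, and the adjusted p beside it tests the signals without the floor. The procedure was tested on simulated data, with independent noise and the same spread for a probe in every group. That simulation did not cover the unequal spread of the member genes between groups. Every member is named, with values per array where the unadjusted p was under 0.01 in HA mice or an adjusted p under 0.05 in any comparison; of each other list the 2 genes with the smallest HA p could be named. The members and the gene lists were chosen with earlier results of these data known. Alternatives were median scaling, normexp background correction, a detection filter, the compared arrays alone, array weights, a replicate block, the authors' values, no limit on size and leaving out each array; averaging the HA saline arrays was added after the data were seen. The number of arrays limits the precision. Deviations of arrays that share a replicate number correlated at -0.331 to 0.19, and arrays were not taken as paired. Labels do not say whether arrays came from separate animals. The study's methods describe 4 independent biological replicates per group, each from pooled RNA, so p-values measure the spread between these pools.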

Additional observations from a re-analysis of the deposited data

Results flagged for a closer look

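Dixon's test on groups of 4 arrays marked 2 of the 132 gene and group combinations, where chance marks about 1 in 20. Calb2, calretinin, had LA DMI replicate 2 at 9.95, and the other 3 LA DMI arrays lay at 9.17 to 9.29. Shox2, a homeobox factor, had HA DMI replicate 3 at 6.73, and the other 3 HA DMI arrays lay at 6.84 to 6.86.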

How the results depend on the processing

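The number of member probes called in HA mice, 6, was 1 with median scaling, 2 with normexp background correction, 11 with undetected probes left out, 21 with the HA arrays alone, 17 with array weights and 0 with the HA saline arrays averaged into 1 sample, a setting added once the data had been seen, in which that lone sample is taken to vary like the other groups and standard errors are larger by construction. It was 0 to 16 without 1 array. The share of all probes called was not counted in these alternatives, so their counts do not compare the thalamic genes with the rest of the array. The HA median, -0.58, was -0.75 with normexp and -0.63 to -0.49 without 1 array. The difference between the lines' treatment effects had a median of -0.62 with normexp, 0 to 2 called probes and a median of -0.51 to -0.30 without 1 array. Between the lines under saline, 0 probes were called with the HA saline arrays averaged, 10 to 22 without 1 array, and the median was 0.70 with normexp and 0.33 to 0.52 without 1 array. Between the lines under DMI, 0 probes were called with median scaling, with the compared arrays alone and with the HA saline arrays averaged, 2 by adjusted p alone, and 0 to 1 without 1 array, with a median of -0.013 to 0.093. In LA mice 0 probes were called in every alternative run, and the median was -0.18 to 0.017 without 1 array. With the replicate number as a block 5 probes were called in HA mice and Tcf7l2 at its brightest probe had an adjusted p of 0.0506 from limma; 0 were called in LA mice, 0 for the difference of effects, 15 between the lines under saline and 1 under DMI. Deviations of arrays with the same number correlated at -0.331 to 0.19, over 0.1 in 4 of 24 pairs, so the numbers were not taken to pair arrays.

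Without 1 array the largest limma adjusted p was 0.103 for Gbx2, 0.109 for Irx2, 0.13 for Tcf7l2 and 0.123 for Zic1, and their differences stayed negative. With median scaling the limma adjusted p was 0.224 for Gbx2, 0.224 for Irx2, 0.315 for Tcf7l2 and 0.451 for Zic1. With normexp it was 0.13 for Gbx2, 0.0662 for Irx2, 0.177 for Tcf7l2 and 0.15 for Zic1. Thus none of these genes was called at its brightest probe in either setting. Zic5, which was detected nowhere and had an HA difference of 0.0072, had -0.00438 with normexp, -0.00161 with array weights and -0.034 to 0.046 without 1 array (-0.016 without HA DMI replicate 2). Over all single-gene values and alternatives 688 kept their direction and side of the threshold, 50 passed it only in the alternative, 46 lost it and 4 changed sign. The difference of the lines' effects uses all arrays, so the compared arrays alone gave no other fit. The causes were not tested.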
